A study of Mus musculus with 6 samples.

Results

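Genes of the lipid droplet and of triglyceride lipolysis, 10 of the 40773 gene symbols in the count table, were followed in RAW264.7 cells, a mouse macrophage line. They encode the lipases Pnpla2, Lipe and Mgll, the lipase coactivator Abhd5, the lipase inhibitors Hilpda and G0s2, the droplet coats Plin2 and Plin3, and the triglyceride synthases Dgat1 and Dgat2. Abhd5 and Hilpda were selected on low p-values of the very comparison described here, and the other 8 were selected for function. One group was given lipopolysaccharide (LPS), a bacterial Toll-like receptor 4 ligand, at 100 ng/mL for 24 h. The second group had 3A2, an antibody neutralizing the membrane metalloproteinase MMP14, at 50 µg/mL together with that LPS dose over the same 24 h. Both groups therefore carried LPS, and cells without LPS or with a control antibody were not analysed here. There were 3 biological replicates per group, all of 1 cell line with no engineered genotype in the labels. The comparison asks how droplet gene mRNA differed when 3A2 was added to LPS-treated macrophages. Without a control antibody, blocking of MMP14 and an effect of antibody as such cannot be told apart.

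Lipid droplets store triglyceride and sterol ester under a single phospholipid layer. Adipose triglyceride lipase, the product of Pnpla2, removes the first fatty acid of a triglyceride and is switched on by the protein of Abhd5. Hormone-sensitive lipase (Lipe) and monoglyceride lipase (Mgll) then cut the products further. The small proteins of G0s2 and Hilpda inhibit adipose triglyceride lipase, perilipins coat the droplet and gate access to it, and DGAT enzymes carry out the last step of triglyceride synthesis. Macrophages activated by inflammatory signals are known to gather such droplets.

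The libraries held 6060732 to 7432553 counts, with 14998 to 15309 genes detected in each. Macrophage markers were all detected, 9 of 9, and summed to 7173 to 7244 CPM (counts per 1000000 counts of the library) with LPS and 6243 to 6683 CPM with 3A2, led by Lyz2 at 3653 to 4389 CPM. The part of that gap in the results below was not tested. Adipocyte markers, of interest because many droplet genes are known from fat cells, summed to 0 to 0.267 CPM, and Adipoq, Lep, Cidec, Cfd, Retn and Adrb3 had 0 counts, while Plin1 had 2. Mmp14 itself had 6 counts over the LPS libraries and 11 with 3A2. One library, LPS plus 3A2 replicate 3, stood apart in composition: its mitochondrially encoded mRNAs lay 0.45 above the mean of all libraries on the log2 scale, against -0.208 to 0.114 in the other libraries. Ribosomal protein mRNAs lay at -0.122 in that library and at 0.012 to 0.041 elsewhere.

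The sequences before the transcription start are shown for the lipase gene and for its activator and inhibitor, because the 2 members whose libraries with 3A2 all lay above those with LPS are the activator Abhd5 and the inhibitor Hilpda. Of all tested genes 12.3% had groups that did not overlap, in either direction, and nothing is read from the count for members chosen on this comparison. The sequences come from RefSeq on build GRCm38.p6, are the 250 bases before the annotated start on the gene's own strand, and are reference sequence, not read from these samples. Capitals mark ACGTG on either strand, a form of the core letters bound by hypoxia-inducible factors. The other form of that core, GCGTG, was neither marked nor counted. The Abhd5 window holds it, and so does the window of the second Hilpda start, which is printed only in part. It stands in windows of further members as well, such as Mgll.
Abhd5, chr9:122351366-122351615, plus strand: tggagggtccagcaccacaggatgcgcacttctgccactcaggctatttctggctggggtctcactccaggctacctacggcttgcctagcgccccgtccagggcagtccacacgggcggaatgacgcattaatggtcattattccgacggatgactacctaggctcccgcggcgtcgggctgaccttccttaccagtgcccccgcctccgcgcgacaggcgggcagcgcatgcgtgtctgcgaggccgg
Hilpda, first annotated start, chr6:29272238-29272487, plus strand: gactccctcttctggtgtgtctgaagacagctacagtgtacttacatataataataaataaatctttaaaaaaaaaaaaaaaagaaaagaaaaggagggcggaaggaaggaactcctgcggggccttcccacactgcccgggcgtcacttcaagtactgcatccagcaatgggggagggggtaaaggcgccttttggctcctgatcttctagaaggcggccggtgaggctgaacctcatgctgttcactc
Hilpda, around ACGTG before the second annotated start, chr6:29272571-29272600, plus strand: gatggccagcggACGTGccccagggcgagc
Pnpla2, chr7:141454938-141455187, plus strand: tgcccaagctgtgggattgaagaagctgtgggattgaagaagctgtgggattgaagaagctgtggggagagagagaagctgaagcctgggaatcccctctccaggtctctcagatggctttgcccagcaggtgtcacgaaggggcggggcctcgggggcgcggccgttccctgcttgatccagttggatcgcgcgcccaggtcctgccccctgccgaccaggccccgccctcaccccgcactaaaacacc
Lipe, around ACGTG before the upstream start, chr7:25396125-25396154, minus strand: aacagggacgacCACGTGagggggcggagg

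Within these windows ACGTG began 43 bases before the second Hilpda start, and the windows of Abhd5 and Pnpla2 held none. The motif was in 4 of the 11 windows available for 8 members, those of Hilpda, Lipe and Mgll, and in 16.6% of 32851 mouse promoter windows of the same length. In Lipe the letters lie inside CACGTG, the palindromic E-box, drawn in capitals whole. CACGTG stood in 2 of the 11 windows, against 6.02% of all windows, and every CACGTG also counts as ACGTG. These matches are descriptions of letters, and no binding was measured.

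Of the members, 7 were clearly expressed, while Dgat2 was low, at 4 to 6 counts a library, and Mgll and G0s2 were at or near 0 counts. Levels were set side by side as CPM per kilobase of merged exons, with lengths from a mouse annotation that may differ from the one used for counting. Plin2, the main perilipin of cells other than adipocytes, was highest, at 87.3 ± 2.44 with LPS and 88.3 ± 3.73 with 3A2 (SD, n = 3). Hilpda followed at 59.3 ± 1.71 and 73.9 ± 9.07 CPM per kilobase. Its highest library, at 84.3, came close to the lowest Plin2 library, at 84.8, but with the longest coding transcript as the length these were 94.7 and 158. Pnpla2 stood at 17.7 ± 1 and 16.4 ± 1.48, and Abhd5 at 14.8 ± 0.316 and 18.5 ± 0.395. With these lengths Pnpla2 lay above Abhd5 in all 3 LPS libraries and below it in all 3 libraries with 3A2. With the longest coding transcript Abhd5 lay above Pnpla2 in both groups, at 27.8 against 20.4 with LPS, so the order of that pair rests on the gene models. Plin3 came next at 8.56 ± 1.53 and 7.98 ± 0.856. Lipe, at 2.66 ± 0.39 and 2.32 ± 0.0776 CPM per kilobase, and Dgat1, at 2.19 ± 0.419 and 1.76 ± 0.398, overlapped in the libraries with LPS and not in those with 3A2. Dgat2 lay far below, at 0.219 ± 0.0583 and 0.262 ± 0.0625.

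A filter on low counts left 7 of the 10 members for the test, and Mgll, Dgat2 and G0s2 were not tested. By the quasi-likelihood test of edgeR 0 of the 7 reached an adjusted p (Benjamini-Hochberg, over all genes) under 0.05, and of all 11498 genes 0 did, or 0%. DESeq2 and limma-voom on the same genes also called 0. At an unadjusted p under 0.05 by edgeR there were 2 members, Abhd5 and Hilpda, whose p-values are what put them on the list. Among all genes 6.51% stood at such a p, 749 in number by edgeR, 379 by DESeq2 and 740 by limma-voom. Of the 5 tested members chosen for function, 0 did. The member with the next smallest p after Hilpda, at 0.00188, was Lipe, at 0.187. Of the 7 tested members 3 lay above 0 and 4 below, with a median log2 fold change of -0.10, against 0.002 for all tested genes.

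Abhd5 encodes CGI-58, the protein that activates adipose triglyceride lipase and is itself without lipase activity. It measured 85.8, 88.4 and 89.5 CPM in the LPS libraries, and 107.5, 111.4 and 111.8 CPM in those with 3A2. All 3 libraries with 3A2 lay above all 3 with LPS, and the gap between the groups was wider than the range within either. The group levels were 87.9 ± 1.89 and 110.2 ± 2.35 CPM (SD, n = 3). The log2 fold change was 0.33 (SE 0.072), or 1.25-fold with a 95% interval of 1.13 to 1.39. In bulk RNA more cells with an mRNA and more of it per cell cannot be told apart. By p-value it ranked 4 among the 11498 genes, a rank that led to its choice and so is a description only. Its adjusted p was 0.514 by edgeR, and over 14 alternatives it ran from 0.0457 to 0.996. The lowest came from the fit without a filter on low counts, in which Abhd5 was the only member called and 0.088% of all genes were called. There its log2 fold change was 0.33 as well, so the estimate barely moved. Its log2 fold change stayed within 0.31 to 0.345 over the alternatives run. It shares 950 exon bases with a gene on the opposite strand, A730085K08Rik, which held 1 count over the 6 libraries.

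Hilpda encodes the hypoxia-inducible droplet protein that inhibits adipose triglyceride lipase. It measured 67.5, 64.9 and 63.9 CPM with LPS, and 77.1, 74.5 and 93.0 CPM with 3A2. The groups did not overlap, and LPS plus 3A2 replicate 3 was well above its own group. The group levels were 65.5 ± 1.88 and 81.5 ± 10 CPM (SD, n = 3). The log2 fold change was 0.32 (SE 0.089), or 1.24-fold (95% interval 1.09 to 1.41), again a value that chose the gene. Without LPS plus 3A2 replicate 3, in which mitochondrial mRNAs were highest too, it was 0.21 (SE 0.078), and without replicate 2 of that group 0.38. The part of that library's composition in the value was not tested. Neither fit called it, at adjusted p-values of 0.792 and 0.0617 by edgeR. Abhd5 did not share this pattern, since without replicate 3 its log2 fold change was 0.32.

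G0s2, the other known inhibitor of adipose triglyceride lipase, had 0 counts in every library. That allows a level of up to 0.404 to 0.495 CPM in a library, where the limit is 3 counts and covers counting error only. At this depth Hilpda was therefore the only one of the 2 inhibitor genes with detected mRNA, in either group.

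Pnpla2, the gene of adipose triglyceride lipase, measured 50.3, 54.2 and 56.2 CPM with LPS, and 49.7, 53.9 and 45.0 CPM with 3A2. The groups overlapped, and the lowest library was LPS plus 3A2 replicate 3. Its log2 fold change was -0.11 (SE 0.093), or 0.926-fold (95% interval 0.809 to 1.06), with an adjusted p of 0.84 by edgeR. Without that library it was -0.05 (SE 0.09).

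Lipe, which cuts diglyceride and sterol esters, measured 17.7, 16.2 and 13.2 CPM with LPS, and 13.3, 13.5 and 14.2 CPM with 3A2. LPS replicates 1 and 2 lay above every library with 3A2, while LPS replicate 3 lay below them all. The fold was 0.869 (95% interval 0.702 to 1.08), with an adjusted p of 0.819 by edgeR. Without LPS replicate 1 the log2 value went from -0.20 to -0.11. Lipe shares 918 exon bases with an antisense gene, 4732471J01Rik, that held 7 counts in all. Mgll, which releases the last fatty acid, had 1 count, in LPS replicate 3, and 0 in the other libraries. Pooled over the LPS libraries its level was 0.0483 CPM (exact 95% Poisson interval 0.00122 to 0.269), and the limit of 3 counts per library holds with 3A2 as for G0s2. Of the 3 lipases in the chain, 2 were thus detected above the filter.

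**Figure D1:**
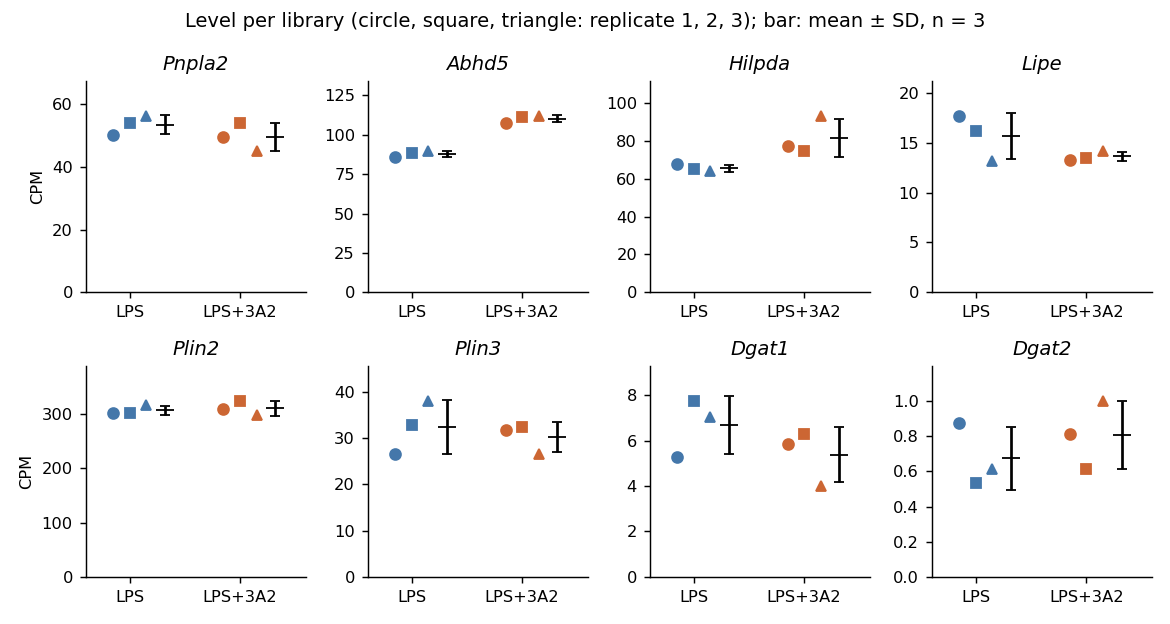
Level of 8 members in CPM (vertical axis, from 0) in each of the 3 LPS (blue) and 3 LPS plus 3A2 (orange) libraries, with marker shape giving the replicate and bars the mean ± SD. Abhd5 and Hilpda, chosen on low p-values of this comparison, have libraries with 3A2 above all LPS libraries, at 107.5 to 111.8 and 74.5 to 93.0 CPM. The other panels overlap.

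Coat genes stayed close between the groups. Plin2, the perilipin that marks droplets in macrophages, measured 301.9, 301.7 and 316.6 CPM with LPS, and 308.7, 324.0 and 298.0 CPM with 3A2. The ranges overlapped almost whole. Its fold was 1.01 (95% interval 0.925 to 1.11), the narrowest interval among the members, at an adjusted p of 0.969 by edgeR. Its sign was negative without LPS plus 3A2 replicate 2, at -0.02 on the log2 scale. Plin3, also called TIP47, a soluble perilipin that joins young droplets, measured 26.5, 32.7 and 38.0 CPM with LPS, and 31.7, 32.4 and 26.5 CPM with 3A2. The LPS libraries alone spanned the whole range. Its fold was 0.935 (0.777 to 1.13), with an adjusted p of 0.9 from edgeR. Its sign was positive, at 0.03 on the log2 scale, without LPS replicate 3. Perilipins of fat and muscle were near absent, with 2 counts of Plin1 over the 6 libraries, 1 of Plin5 and 0 of Plin4.

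Of the enzymes that make triglyceride, Dgat1 passed the filter on low counts, and Dgat2 was detected in every library but at a level below that filter. Dgat1 had 36, 58 and 46 counts with LPS, and 36, 41 and 24 with 3A2. In CPM these are 5.26, 7.75 and 7.05, against 5.83, 6.3 and 4.0, and the groups overlapped. Its fold of 0.806 had the widest interval of the tested members, 0.574 to 1.13, at an adjusted p of 0.821 by edgeR. The log2 value was -0.31 (SE 0.235) and went to -0.14 without LPS plus 3A2 replicate 3, the lowest library, and to -0.19 without LPS replicate 2. Dgat2 had 6, 4 and 4 counts with LPS, and 5, 4 and 6 with 3A2. Pooled, these are 0.676 CPM for LPS (exact 95% Poisson interval 0.37 to 1.13), and 0.797 CPM for the antibody group (0.446 to 1.31). The ratio of 1.18 had a counting interval of 0.531 to 2.64, which this depth cannot tell from 1.

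**Figure D2:**
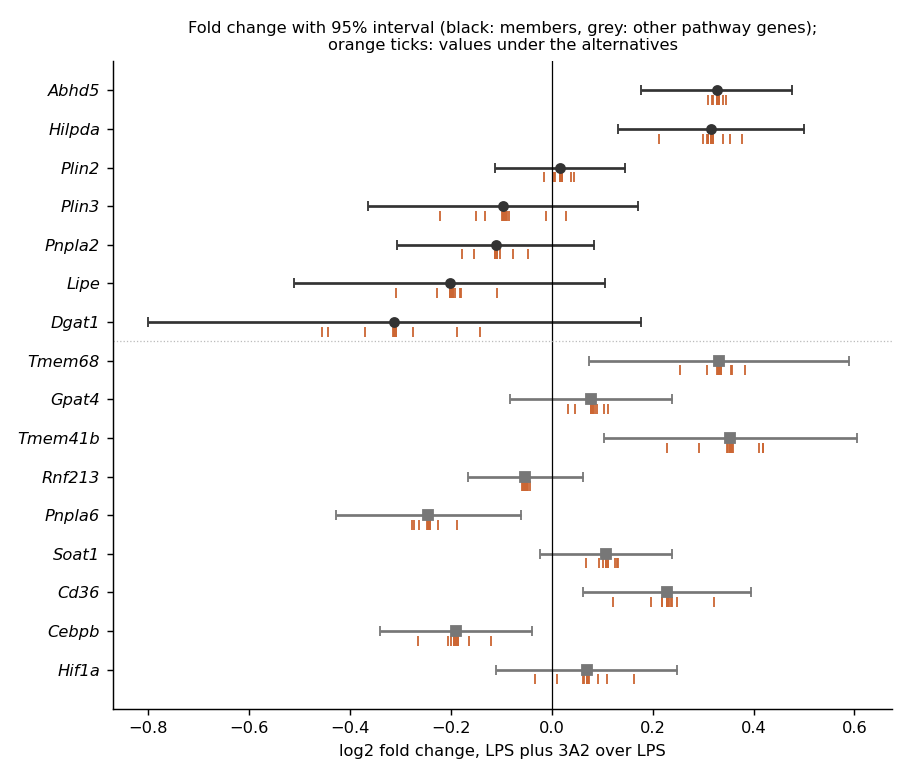
Log2 fold change of LPS plus 3A2 over LPS (horizontal axis) for the 7 tested members (black circles) and 9 other pathway genes (grey squares), with 95% intervals, and orange ticks for the values under each alternative. Abhd5 and Hilpda lie at 0.33 and 0.32, and were chosen on low p-values of this comparison, so their distance from 0 is no result. The intervals of the other 5 members cross 0.

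Within a library, the ratio of 2 members does not depend on the library total. Counts of Abhd5 per count of Pnpla2, the coactivator against its enzyme, were 1.71, 1.63 and 1.59 with LPS, and 2.16, 2.07 and 2.49 with 3A2. Counts of Hilpda per count of Pnpla2, inhibitor against enzyme, were 1.34, 1.2 and 1.14 with LPS, and 1.55, 1.38 and 2.07 with 3A2. Both ratios were higher in all 3 libraries with 3A2 than in any LPS library, by 1.36-fold and 1.34-fold. They hold the members chosen for their p-values and are not tested. Without LPS plus 3A2 replicate 3 the log2 differences were 0.36 and 0.26, from 0.44 and 0.43. Both ratios share the Pnpla2 counts and hold members chosen on this comparison, so nothing is read from their shared direction. Lipase activity was not measured. The ratios of members chosen for function overlapped between the groups. Pnpla2 to Lipe stood at 3.49 ± 0.722 and 3.64 ± 0.417 (exact two-sided permutation p = 0.8, where 0.1 is the smallest possible), and Plin3 to Plin2 at 0.105 ± 0.0164 and 0.0973 ± 0.00736 (p = 0.5, same permutation test). Dgat2 to Dgat1 stood at 0.108 ± 0.052 and 0.162 ± 0.0788 (permutation p = 0.4), on at most 6 Dgat2 counts a library. Its log2 difference of 0.59 ran from 0.22 without LPS plus 3A2 replicate 3 to 0.96 without LPS replicate 1. As 0.1 is the smallest p that each of these 3 tests can give, none could reach 0.05, before or after adjustment.

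**Figure D3:**
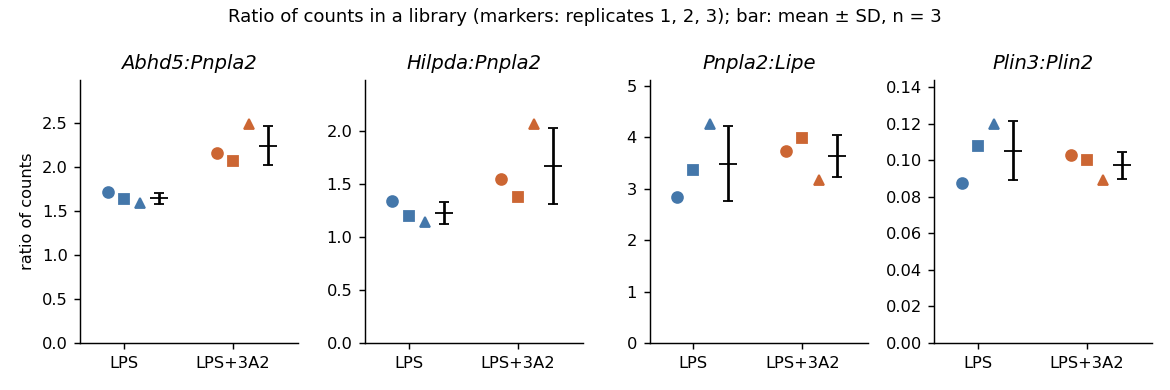
Ratio of counts of 2 members in each library (vertical axis, from 0), LPS in blue and LPS plus 3A2 in orange, with marker shape giving the replicate and bars the mean ± SD. The ratios to Pnpla2 of Abhd5 and of Hilpda, both chosen on low p-values of this comparison, are higher in all 3 libraries with 3A2. The ratios Pnpla2 to Lipe and Plin3 to Plin2 overlap.

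Several members varied together across the libraries, and Hilpda varied against them, as did Lipe within the groups. Over the 6 libraries Pearson's r of log2 CPM was 0.934 for Pnpla2 with Dgat1, 0.836 for Pnpla2 with Plin3 and 0.655 for Pnpla2 with Plin2. For Hilpda with Pnpla2 it was -0.872. After each group's mean was subtracted, the same pairs stood at 0.908, 0.863, 0.917 and -0.906. Hilpda with Plin2 stood at -0.285 before the subtraction and at -0.815 after it. Lipe with Plin3, Plin2, Pnpla2 and Dgat1 stood at -0.554, -0.603, -0.092 and -0.033 before it, and at -0.897, -0.623, -0.611 and -0.499 after it. These are descriptions of 6 points that share the scaling and hold the library that stood apart. In LPS plus 3A2 replicate 3 Plin2, Pnpla2 and Dgat1 had their lowest level of the 6 libraries, and Hilpda and Abhd5 their highest. Relative to the mean of all libraries, Dgat1 there lay at -0.55 on the log2 scale, Pnpla2 at -0.19 and Hilpda at 0.35. LPS replicate 1 had the lowest Plin3 level of the 6 libraries, at -0.23, and the highest Lipe level, at 0.28. Abhd5 was flat within each group. Among the other libraries, mitochondrial mRNAs were lowest in LPS replicate 3, at -0.208, and highest in LPS plus 3A2 replicate 1, at 0.114. In these libraries, which differ in group, Pnpla2 lay at 0.129 and -0.048, Dgat1 at 0.25 and -0.018, and Hilpda at -0.189 and 0.081. The correlations that follow include LPS plus 3A2 replicate 3, and none was computed without it. Over the 6 libraries Pearson's r with the mitochondrial mRNA level was 0.932 for Hilpda, -0.97 for Pnpla2 and -0.907 for Dgat1. For Abhd5 it was 0.606, for Plin2 -0.569, for Plin3 -0.688 and for Lipe -0.122. The part of mitochondrial mRNA content in the values of the members, in their ratios and in these correlations was not tested.

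**Figure D4:**
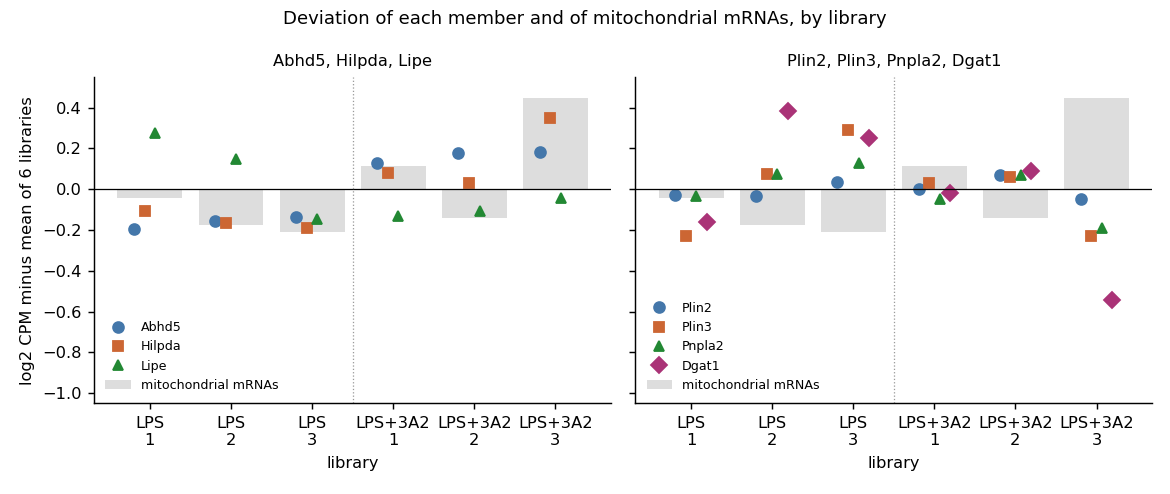
Log2 CPM minus the mean of the 6 libraries (vertical axis) for each tested member (markers) by library (horizontal axis), over grey bars of the mean for mitochondrially encoded mRNAs. In LPS plus 3A2 replicate 3 the bar stands at 0.45, with Hilpda at 0.35 and Dgat1 at -0.55, while Abhd5 sits at 0.13 to 0.18 in all libraries with 3A2.

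The genes whose levels followed those of Abhd5 and Hilpda most closely over the 6 libraries were sought among 8908 genes with a mean of at least 10 CPM, by Pearson's r of log2 CPM. For Abhd5 these were Ints7, Errfi1 and Tollip, at r of 0.99, 0.989 and 0.986. For Hilpda they were Car2, Dars and Mettl9, at 0.994, 0.987 and 0.985. With 6 points that share the split into groups, 73 genes passed an r of 0.9 with Abhd5 and 304 with Hilpda, so the names describe these libraries only.

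Around the members, 101 other gene symbols of droplet and neutral lipid metabolism were listed by role and matched as written, without merging older and newer names. Of these symbols 99 were in the table and 74 were tested. By edgeR 0 passed over all genes, and 5 stood at an unadjusted p under 0.05, which is 6.76% beside the 6.51% of all genes. The groups did not overlap for 10 of them, or 13.5%, where all genes gave 12.3%. Both shares are near the background. For 64 of the 74 the whole 95% interval stayed inside 1.5-fold in either direction, as it did for 9145 of all 11498 tested genes.

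Of 13 other tested genes of triglyceride synthesis, 9 lay above 0 and 4 below, their median was 0.08 (log2), and edgeR called 0. Tmem68, which encodes an acyltransferase able to form triglyceride without DGAT, measured 19.6, 18.3 and 18.8 CPM with LPS, and 23.0, 22.1 and 26.3 CPM with 3A2. All its libraries with 3A2 lay above those with LPS, at 1.26-fold (95% interval 1.05 to 1.5) and an adjusted p of 0.719 by edgeR. Gpat4, the most abundant gene of the list and a glycerol phosphate acyltransferase, stood at 1.06-fold (0.945 to 1.18), and its log2 value of 0.08 went to 0.03 without LPS replicate 2 and to 0.05 without LPS plus 3A2 replicate 3.

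Of 17 tested genes of droplet assembly and coat, 11 lay above 0 and 6 below, with a median of 0.06 and 0 called by edgeR. Tmem41b, a scramblase of the endoplasmic reticulum, stood at 1.28-fold (1.07 to 1.52) and an adjusted p of 0.719, from 27.2 ± 2.35 to 34.7 ± 5.13 CPM (SD, n = 3). Without LPS plus 3A2 replicate 3 its log2 fold change went from 0.35 to 0.23. Rnf213, a very large ubiquitin ligase found on droplets, was the most abundant at 0.964-fold (0.891 to 1.04). Cidea, Cideb, Cidec, Plin4 and Hsd17b13 had 0 counts in all libraries.

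Of 15 tested genes of neutral lipid hydrolysis and lipophagy, 12 lay above 0 and 3 below, with a median of 0.05 and 0 called by edgeR. The list also holds Soat1 and Soat2, which form sterol esters instead of cutting them, and both lay above 0. Pnpla6, a phospholipase relative of Pnpla2, measured 57.7, 59.3 and 61.0 CPM with LPS, and 52.0, 52.2 and 45.8 CPM with 3A2. Its groups did not overlap, at 0.844-fold (0.743 to 0.958) and an adjusted p of 0.719. Soat1, which esterifies cholesterol for storage in droplets, was the most abundant at 1.08-fold (0.984 to 1.18). Its groups of 293.9 ± 8.02 and 316.7 ± 15.4 CPM did not overlap, and without LPS plus 3A2 replicate 3 its log2 fold change went from 0.11 to 0.07.

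Of 12 tested genes of fatty acid uptake and activation, 6 lay above 0 and 6 below, with a median of 0.002 and 0 called by edgeR. Cd36, a fatty acid and lipoprotein receptor, was both the most abundant and the one with the smallest p. It measured 626.5, 617.3 and 583.4 CPM with LPS, and 706.0, 618.5 and 815.5 CPM with 3A2. Replicate 2 with 3A2 lay within the LPS range and replicate 3 highest, and the fold was 1.17 (1.04 to 1.31) at an adjusted p of 0.719. Without LPS plus 3A2 replicate 2 edgeR called Cd36, with a log2 fold change of 0.32 (adjusted p = 0.028), in a fit where 0.206% of all genes were called. Without replicate 3 the log2 fold change was 0.12.

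Of 17 tested regulators, 5 lay above 0 and 12 below, with a median of -0.07 and 0 called by edgeR. Cebpb, a transcription factor of activated macrophages and of fat cell formation, measured 225.7, 227.9 and 239.1 CPM with LPS, and 201.3, 223.1 and 182.6 CPM with 3A2. Its groups did not overlap, at 0.877-fold (0.79 to 0.973) and an adjusted p of 0.719, and the log2 value went from -0.19 to -0.12 without LPS plus 3A2 replicate 3. Hif1a, whose protein is known to switch on Hilpda, stood at 1.05-fold (0.926 to 1.19), was the most abundant, and had a negative log2 value of -0.03 without LPS plus 3A2 replicate 3. Among the PPAR receptors, which are known regulators of perilipin and lipase genes, Ppard measured 54.2 ± 0.66 and 54.3 ± 3.16 CPM, while Pparg had 1 count in 1 library and Ppara 0 in all 6.

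**Figure D5:**
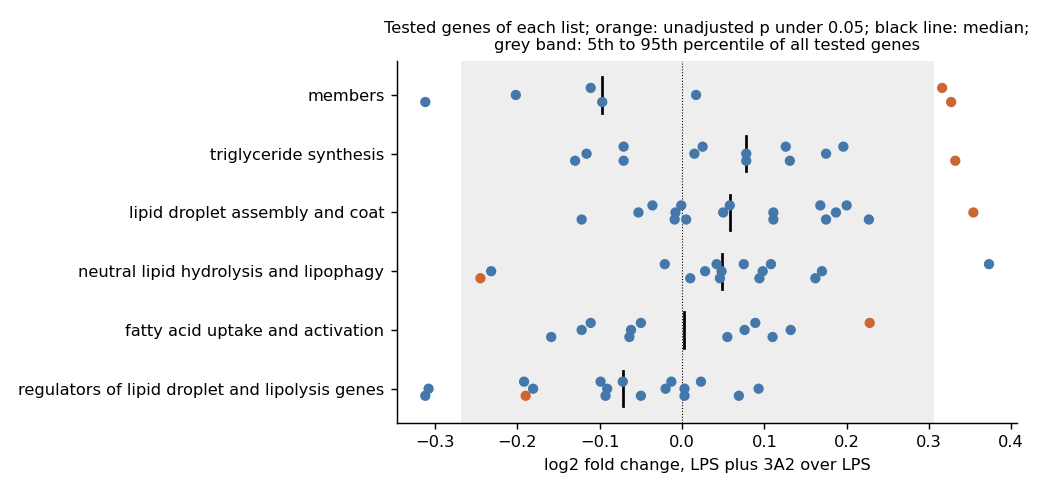
Log2 fold change of LPS plus 3A2 over LPS (horizontal axis) for each tested gene of the 10 members and of 5 lists by role, with the median as a black line, orange points for an unadjusted p under 0.05, and a grey band for the 5th to 95th percentile of all tested genes, -0.27 to 0.30. The medians of the lists lie between -0.07 and 0.08. Abhd5 at 0.33 and Hilpda at 0.32 lie beyond the upper edge of the band, as do Tmem68, Tmem41b and Tfeb. Abhd5 and Hilpda were chosen on low p-values of this comparison. Dgat1 at -0.31, Rxra and Nr1h3 lie beyond the lower edge. Tfeb, Dgat1, Rxra and Nr1h3 are low, with means of 1.56 to 7.55 CPM, and their 95% intervals cross 0.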

How the data were processed

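The authors deposited raw read counts per gene symbol for 6 libraries, 1 column each. Per the labels' protocols, sequencing was paired-end, from rRNA-depleted libraries that keep strand. Per the submitters' processing notes, HISAT2 and edgeR were used, with no version or role, and the build is GRCh38, a human one, although the symbols are mouse. How reads were assigned to genes, by which annotation and with which strand option, is not given in the sources used here. Therefore only promoter positions, from RefSeq, are printed. Columns without a name, 3 of them holding values, were not used.

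Groups and replicate numbers came from the sample titles. Counts were filtered (filterByExpr, 11498 genes left), scaled (TMM) and fitted in R 4.3.3 with edgeR 4.0.16, robust quasi-likelihood F test, two-sided, no covariate, Benjamini-Hochberg adjusted over all genes. CPM used TMM-scaled totals, and group values of untested genes unscaled totals with exact 95% Poisson intervals, which cover counting error only. Alternatives were other size factors, totals and filters, DESeq2 1.42.0, limma-voom (3.58.1), the replicate block, a threshold of 0.01 and leaving out each library. A DESeq2 fit of all genes with a count and lengths by longest transcript were added after seeing the data. Members and lists were chosen with earlier results of these data known. Named in each list are the gene with the smallest p, up to 4 with an unadjusted p under 0.05, and the most abundant. Rxra, Nr1h3, Tfeb, perilipins, PPAR receptors and genes at 0 named beside them were chosen after their values were seen.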

Additional observations from a re-analysis of the deposited data

How the results depend on the processing

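The count of genes called, 0 with all libraries and the filter, was 16 without a filter on low counts, 1 with the replicate number as a block, 1 with DESeq2 on all genes with a count, and 0 to 24 when each library was left out, the highest without LPS plus 3A2 replicate 2. It was 0 under the other alternatives. The count of members called was 1 without the filter, which was Abhd5, and 0 under the rest. Genes at an unadjusted p under 0.05, 749 in all, were 379 with DESeq2, 389 with DESeq2 on all genes with a count, and 457 to 1751 when each library was left out. Members at such a p were 2 under every alternative, Abhd5 and Hilpda. Both were chosen on low p-values of this comparison, and the alternatives refit the same libraries. Their count, signs and ranges here are therefore a description and no support. The log2 fold change kept its sign under 14 alternatives for Abhd5 (0.31 to 0.345), Hilpda (0.212 to 0.377), Pnpla2 (-0.177 to -0.047), Lipe (-0.309 to -0.108) and Dgat1 (-0.456 to -0.143). It changed sign for Plin2 (-0.016 to 0.045), Plin3 (-0.222 to 0.029) and Hif1a (-0.033 to 0.163) when a library was left out; the cause was not tested. The ratio of Pnpla2 to Lipe changed sign too, at -0.064 without LPS replicate 1. The replicate numbers did not pair the libraries, as deviations of same-numbered libraries correlated at -0.002, 0.041 and -0.148 across genes, and the block called 0 members. Depth limited Mgll, Dgat2 and G0s2, with at most 6 counts a library.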
